A study of Homo sapiens with 6 samples.

Results

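The interferon-stimulated genes examined here were 37 genes chosen by name, among them the MX, OAS, IFIT, IFITM and guanylate-binding protein families. A gene counted as measured when a probe annotated to it had a detection p under 0.01 on at least 3 of the 6 arrays. Probes were listed for 36 of the 37 genes, and 33 genes were measured, of 11264 measured genes in all. IFI44L, IRF7 and OASL had probes that did not pass the detection filter. STAT2 was not analysed here.

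The cells were WM-266-4, an established human melanoma line. The CT16 group was 3 RNA samples of cells stably transfected with the plasmid pEXPR-IBA103 with an insert, the cDNA of CT16 (cancer-testis antigen 16, gene symbol PAGE5). The control group was 3 RNA samples of cells with the plasmid without the cDNA. Both groups had been selected with G418 and were kept in the same serum-supplemented medium with G418, and no interferon treatment is named in the labels. The sources used here do not say whether the transfected cells were clones or mixed populations. They also do not say whether the samples of a group came from separate transfections or separate cultures. The p-values measure only the spread between these samples. In bulk RNA, fewer cells that express a gene and less RNA per cell cannot be told apart. All values are log2 signals after background correction and quantile normalization, and differences are CT16 minus control. The threshold was a Benjamini-Hochberg adjusted p under 0.05 over all tested probes in limma.

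CT16 replicate 3 stood apart from the other arrays. Its correlations with them were 0.884 to 0.936, while those among the other 5 arrays were 0.955 to 0.994. It had the fewest detected probes, 16200, against 17151 to 18789 on the others, and 30 of the 33 interferon-stimulated genes were detected on it, against 33 on each other array. The lowest log2 signal of a detected probe was 5.07 to 5.39 per array. The transfected gene was read by a PAGE5 probe at 6.24, 6.14 and 7.47 in CT16 replicates 1, 2 and 3, against 5.40, 5.44 and 5.70 in control replicates 1, 2 and 3. All CT16 arrays lay above the control arrays, and the difference was 1.11 ± 0.37 (SE; limma, adjusted p = 0.582), or 0.68 without CT16 replicate 3. A second PAGE5 probe read 5.11, 5.20 and 6.09 in CT16 replicates 1, 2 and 3, against 5.36, 5.62 and 5.37 in control replicates 1, 2 and 3. Its groups overlapped, with a difference of 0.02 ± 0.30, or -0.29 without CT16 replicate 3, and the other PAGE5 probe was detected on 0 arrays. The PAGE5 probes thus disagreed. Apart from the arrays, the authors report checking CT16 in the transfected cells by qRT-PCR for mRNA and by Western blot for protein, with control-transfected cells as negative controls. For each interferon-stimulated gene the difference is also given without CT16 replicate 3.

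Interferons are secreted proteins released by cells that sense viral nucleic acid or other danger signals. They bind receptors on the cell surface, receptor-bound JAK kinases phosphorylate STAT proteins, and the STAT proteins enter the nucleus. A complex that contains STAT2 and IRF9 binds the interferon-stimulated response element (ISRE), and STAT dimers formed after interferon gamma bind the gamma-activated site (GAS). The induced genes code for proteins that block viral replication, degrade RNA, modify proteins with the ubiquitin-like ISG15 or present antigen. In tumor cells many of them are also transcribed at a resting level.

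Promoters of 5 of the genes are printed to show the elements through which interferon acts in the genes described here: MX1, IFI27 and ISG20 had the smallest p-values among members with a RefSeq promoter window, ISG15 has adjoining elements and IRF1 has a GAS. Each stretch has 250 bases, taken from RefSeq (GRCh38.p14) and ending at the base before the gene start, except for MX1, where it ends 21 bases after the start so that the element is included. Capitals mark every match to GAAANNGAAA or its reverse complement TTTCNNTTTC (ISRE) and to TTCNNNGAA (GAS, the same on both strands), with overlapping matches joined.
MX1 (chr21:41420329-41420578, plus strand): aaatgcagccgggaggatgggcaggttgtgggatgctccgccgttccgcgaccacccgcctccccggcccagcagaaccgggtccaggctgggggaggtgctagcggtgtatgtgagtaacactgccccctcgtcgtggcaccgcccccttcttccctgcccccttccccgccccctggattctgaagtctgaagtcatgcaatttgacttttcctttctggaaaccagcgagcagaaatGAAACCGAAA
IFI27 (chr14:94110486-94110735, plus strand): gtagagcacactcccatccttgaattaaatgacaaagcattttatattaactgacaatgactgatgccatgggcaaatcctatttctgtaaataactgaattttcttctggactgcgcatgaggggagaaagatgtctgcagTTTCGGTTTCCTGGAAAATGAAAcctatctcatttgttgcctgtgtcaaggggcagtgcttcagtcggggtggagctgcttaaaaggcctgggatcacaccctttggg
ISG20 (chr15:88638766-88639015, plus strand): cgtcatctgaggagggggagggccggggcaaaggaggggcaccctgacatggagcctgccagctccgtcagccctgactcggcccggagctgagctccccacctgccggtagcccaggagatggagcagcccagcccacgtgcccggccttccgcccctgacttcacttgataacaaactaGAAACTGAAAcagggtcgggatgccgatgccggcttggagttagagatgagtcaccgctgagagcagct
ISG15 (chr1:1013247-1013496, plus strand): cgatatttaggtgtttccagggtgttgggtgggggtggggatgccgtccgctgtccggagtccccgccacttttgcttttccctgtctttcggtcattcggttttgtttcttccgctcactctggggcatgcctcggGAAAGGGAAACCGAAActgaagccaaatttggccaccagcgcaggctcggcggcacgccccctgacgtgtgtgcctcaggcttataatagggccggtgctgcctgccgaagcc
IRF1 (chr5:132490774-132491023, minus strand): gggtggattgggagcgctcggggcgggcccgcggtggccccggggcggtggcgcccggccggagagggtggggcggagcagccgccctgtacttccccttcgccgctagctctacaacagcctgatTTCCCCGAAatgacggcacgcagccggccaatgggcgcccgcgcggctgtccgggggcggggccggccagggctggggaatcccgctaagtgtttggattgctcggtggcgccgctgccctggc
In IFI27 a GAS match overlapped the ends of both ISRE matches, and in ISG15 a pair of ISRE matches shared bases. IRF1 had a GAS match and no ISRE match.

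RefSeq promoter windows, from 250 bases before to 50 bases after the gene start, were matched for 28 of the 37 genes. The ISRE letters were found in 18 of these 28 windows, against 996 of 27305 (3.65%) of all RefSeq promoter windows. The GAS letters were in 7 of 28, against 2152 of 27305 (7.88%). A match is a run of letters and not a measured binding site, and MX2 was among the genes without a window.

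**Figure D1:**
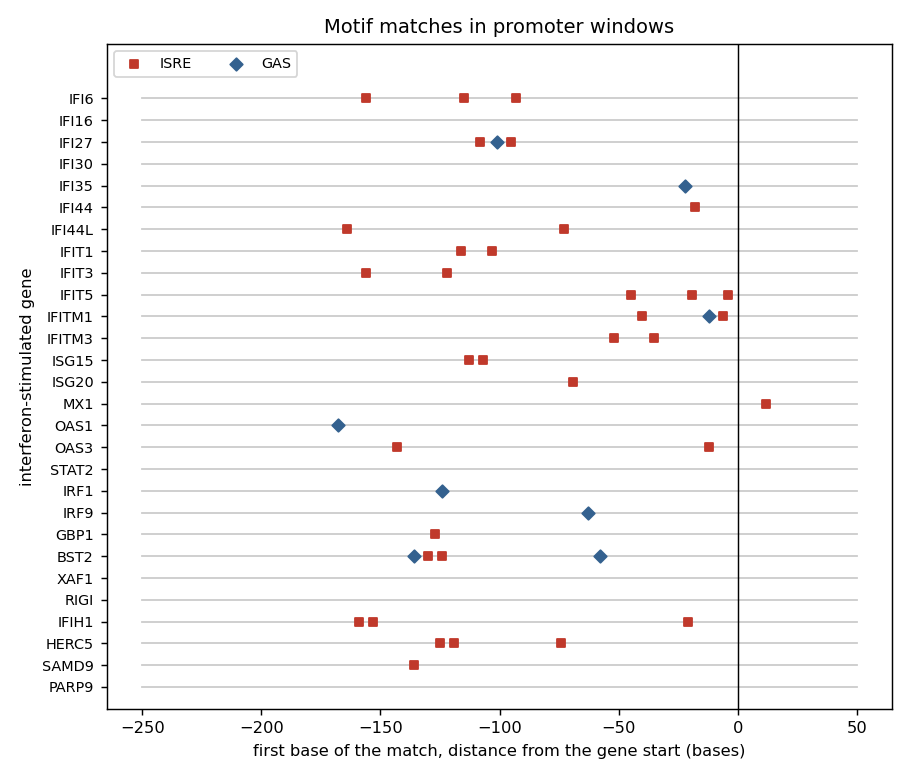
Position of ISRE (squares) and GAS (diamonds) matches in the promoter windows of 28 interferon-stimulated genes, with each grey line 1 window and the x axis the distance of the first base of the match from the gene start in bases. ISRE matches occurred in 18 windows and GAS matches in 7.

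None of the 33 interferon-stimulated genes passed the threshold, against 27 of 11264 genes (0.24%) in all, 18 higher (0.16%) and 9 lower (0.0799%) in CT16 cells. At an unadjusted p under 0.05 there were 4, against 722 genes (6.41%) in all. These were IFI27 and ISG20, with higher signal in CT16 cells, and MX2 and MX1, with lower signal. Over all genes the same count was 373 higher (3.31%) and 349 lower (3.1%). The 3 CT16 arrays did not overlap the 3 control arrays for 6 of the 33 genes, against 1598 genes (14.2%) in all. IFI27, ISG20 and IFITM1 lay above the control arrays on every CT16 array, and MX2, MX1 and TRIM22 lay below. The share of all genes without overlap was 6.79% above and 7.4% below.

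The family did not move as 1 block. Differences were positive for 18 genes and negative for 15, where 47.2% of all genes were positive, and ranged between -1.28 (MX2) and 1.10 (IFI27). The median was 0.04, against -0.03 over all genes, and the median size of a difference regardless of sign was 0.26, against 0.23 over all genes. The median SE of an interferon-stimulated gene was 0.33.

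**Figure D2:**
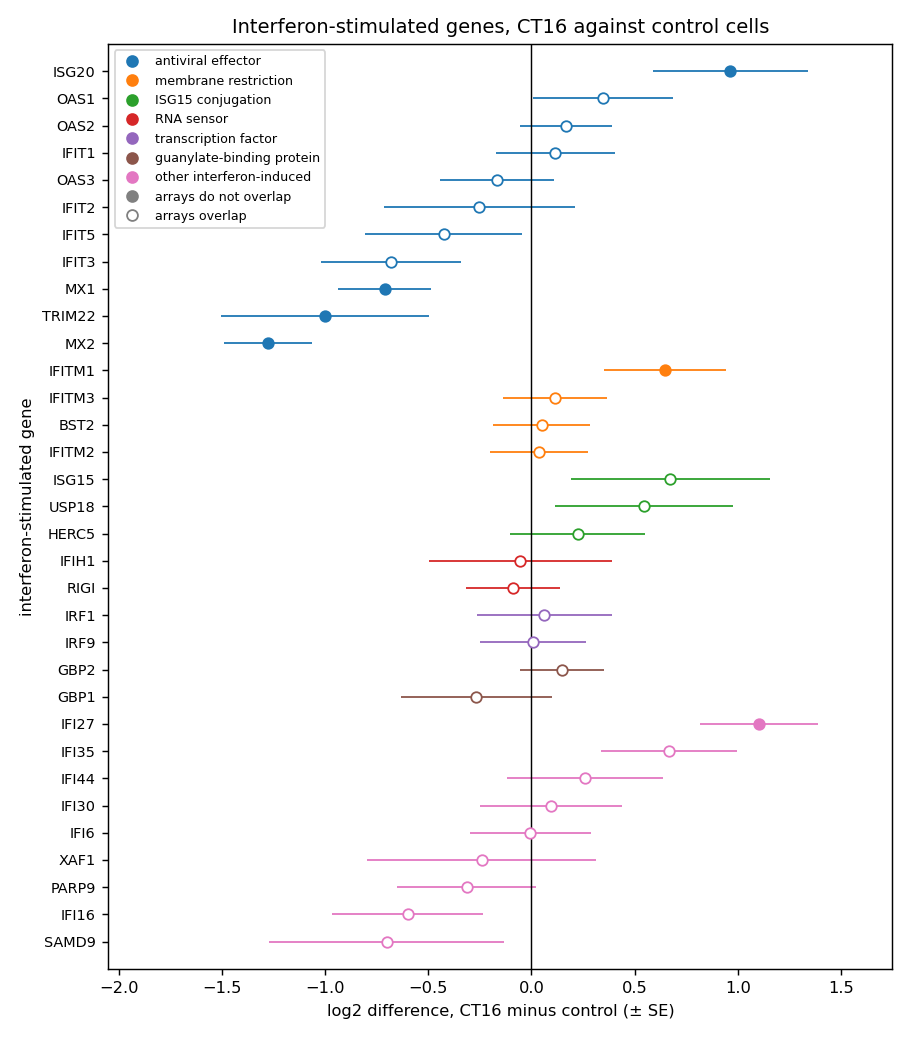
Log2 difference, CT16 minus control, of each of the 33 measured interferon-stimulated genes (x axis; bars are ± SE of the limma fit, n = 3 arrays per group), ordered by role on the y axis, with filled points for genes whose arrays did not overlap. The 6 filled points are ISG20, IFITM1 and IFI27 to the right of 0 and MX1, TRIM22 and MX2 to the left.

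The antiviral effectors comprised 11 measured genes, of which 4 had positive and 7 negative differences, with a median of -0.25. MX2 and MX1 code for dynamin-like GTPases that trap incoming viral particles, MX2 at the nuclear pore. MX2 read 9.11, 9.27 and 8.94 in CT16 replicates 1, 2 and 3, against 10.54, 10.40 and 10.21 in control replicates 1, 2 and 3. Each CT16 array was more than 0.9 below each control array, and the spread within a group was small. The mean was 9.11 ± 0.16 in CT16 cells and 10.38 ± 0.16 in control cells (SD, n = 3 each), a difference of -1.28 ± 0.21 (SE), or 2.42-fold lower in CT16 cells (limma, adjusted p = 0.106). Without CT16 replicate 3 the difference was -1.19 ± 0.18 and passed the threshold (limma, adjusted p = 0.0239).

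MX1 read 11.24, 11.32 and 11.66 in CT16 replicates 1, 2 and 3, against 12.34, 12.07 and 11.95 in control replicates 1, 2 and 3. The groups were separated by a gap between CT16 replicate 3 and control replicate 3 that was narrower than the spread within either group. The difference was -0.71 ± 0.23 (SE), or 1.64-fold lower in CT16 cells (limma, adjusted p = 0.535). Without CT16 replicate 3 it was -0.84 ± 0.18 (adjusted p = 0.103). The MX1 probe was far above the lowest signal of a detected probe on all 6 arrays.

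TRIM22, a ubiquitin ligase that limits retroviral transcription, read 7.07, 7.39 and 5.36 in CT16 replicates 1, 2 and 3, against 7.45, 7.62 and 7.76 in control replicates 1, 2 and 3. Its groups did not overlap, but CT16 replicate 3, where the probe was not detected, carried most of the difference. The value was -1.0 ± 0.50 (SE; limma, adjusted p = 0.904), and -0.38 ± 0.19 without that array.

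ISG20, a 3′ to 5′ exonuclease that degrades viral RNA, read 8.95, 8.76 and 10.11 in CT16 replicates 1, 2 and 3, against 8.56, 8.16 and 8.20 in control replicates 1, 2 and 3. All CT16 arrays were above the control arrays, and CT16 replicate 3 was far above the other CT16 arrays. The difference was 0.97 ± 0.37 (SE), or 1.95-fold higher in CT16 cells (limma, adjusted p = 0.721). Without CT16 replicate 3 it was 0.55 ± 0.19 (adjusted p = 0.331).

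**Figure D3:**
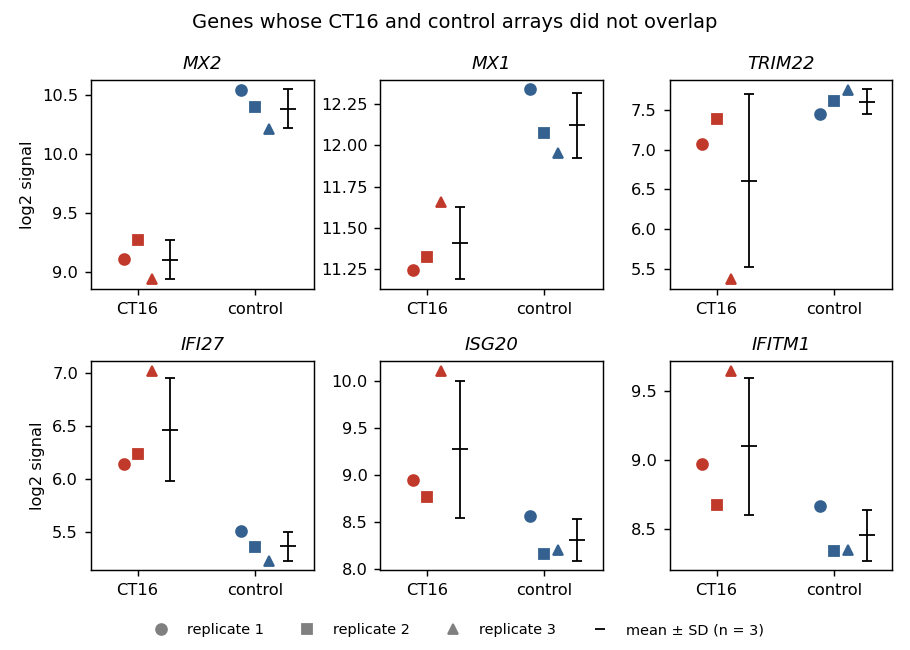
Log2 signal (y axis) on each array for the 6 interferon-stimulated genes whose CT16 (red, left) and control (blue, right) arrays did not overlap, with symbols for the replicate number and black bars for the mean ± SD (n = 3). Both groups are tight for MX2 (SD 0.16 each), while CT16 replicate 3 lies far from the other CT16 arrays for TRIM22 (5.36) and ISG20 (10.11).

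IFIT2, which binds viral RNA and restrains its translation, read 11.31, 11.50 and 9.82 in CT16 replicates 1, 2 and 3, against 10.71, 11.28 and 11.41 in control replicates 1, 2 and 3. The groups overlapped, with a difference of -0.25 ± 0.46 (SE) that became 0.28 ± 0.24 without CT16 replicate 3. The relatives IFIT1 and IFIT5, both sensors of viral RNA 5′ ends, gave 0.12 ± 0.29 and -0.43 ± 0.38, and IFIT3, which stabilizes IFIT1, gave -0.68 ± 0.34. IFIT1, IFIT5 and IFIT3 gave 0.39, -0.04 and -0.36 without CT16 replicate 3. The other tested IFIT3 probes gave 0.36 and 0.19, so its probes disagreed in sign.

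The oligoadenylate synthetases OAS1, OAS2 and OAS3 detect double-stranded RNA and make the messenger that activates RNase L. Their differences were 0.35 ± 0.34, 0.17 ± 0.23 and -0.17 ± 0.28 (SE), and the groups overlapped for each gene. Leaving out CT16 replicate 3 gave 0.00 for OAS1, 0.08 for OAS2 and -0.35 for OAS3. A second tested OAS2 probe gave -0.14.

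The membrane restriction factors were 4 genes, and all 4 differences were positive, with a median of 0.08. IFITM1, IFITM2 and IFITM3 sit in cell and endosomal membranes and hinder the fusion of viruses, and BST2 (tetherin) holds budding virions at the cell surface. IFITM1 was the only one of them whose groups did not overlap. It read 8.97, 8.67 and 9.65 in CT16 replicates 1, 2 and 3, against 8.67, 8.34 and 8.35 in control replicates 1, 2 and 3, a difference of 0.65 ± 0.30 (SE; limma, adjusted p = 0.834). CT16 replicate 2 and control replicate 1 differed by less than 0.01, so the separation was narrow, and without CT16 replicate 3 the difference was 0.37 ± 0.19.

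IFITM2 read 12.86, 12.80 and 13.33 in CT16 replicates 1, 2 and 3, against 13.17, 12.87 and 12.85 in control replicates 1, 2 and 3. IFITM3 read 12.85, 12.80 and 13.39 in CT16 replicates, against 13.13, 12.81 and 12.75 in control replicates. Both pairs of groups overlapped, with differences of 0.04 ± 0.24 and 0.12 ± 0.25 (SE) that were -0.13 and -0.07 without CT16 replicate 3. BST2 read 11.38, 11.35 and 11.92 in CT16 replicates, against 11.54, 11.52 and 11.45 in control replicates, a difference of 0.05 ± 0.23, and of -0.14 without CT16 replicate 3. On all 6 arrays these 3 probes were far above the lowest signal of a detected probe.

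ISG15 is a ubiquitin-like protein that is conjugated to new proteins by HERC5 and removed by USP18, which also damps interferon receptor signaling. All 3 genes had positive differences, with a median of 0.55. ISG15 read 7.97, 7.58 and 9.40 in CT16 replicates, against 8.09, 7.58 and 7.26 in control replicates, and the difference of 0.67 ± 0.48 (SE) was 0.13 ± 0.27 without CT16 replicate 3. USP18 gave 0.55 ± 0.43 with all arrays and 0.06 ± 0.23 without it. HERC5 went the other way on that array, with 0.22 ± 0.33 with all arrays and 0.57 ± 0.18 without it (limma, adjusted p = 0.267).

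The cytosolic RNA sensors RIGI (DDX58) and IFIH1 (MDA5) recognise viral RNA and start interferon production. Their differences were -0.09 ± 0.23 and -0.05 ± 0.44 (SE). Of the transcription factors, IRF9, a DNA-binding partner of STAT2, gave 0.01 ± 0.26, and IRF1, an early target of interferon gamma, gave 0.06 ± 0.33. The guanylate-binding proteins GBP1 and GBP2, GTPases that attack vacuoles of intracellular microbes, gave -0.27 ± 0.37 and 0.15 ± 0.20, and GBP1 was detected on 2 of 3 CT16 arrays. The groups overlapped for each of these 6 genes. When CT16 replicate 3 was left out, RIGI and IFIH1 gave 0.07 and 0.36, IRF9 and IRF1 gave -0.17 and -0.23, and GBP1 and GBP2 gave 0.12 and 0.21. All of them but GBP2 then had the opposite sign.

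IFI27, a small hydrophobic protein of mitochondria and other membranes, had the largest positive difference of the family. It read 6.14, 6.23 and 7.02 in CT16 replicates 1, 2 and 3, against 5.50, 5.36 and 5.23 in control replicates 1, 2 and 3. Each CT16 array exceeded each control array, although the control signal lay close to the lowest value of a detected probe. The difference was 1.10 ± 0.29 (SE), or 2.15-fold higher in CT16 cells (limma, adjusted p = 0.358). Without CT16 replicate 3 it was 0.82 ± 0.17 (adjusted p = 0.0867).

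IFI6, a mitochondrial relative of IFI27 that counteracts apoptosis, read 11.45, 11.71 and 12.09 in CT16 replicates, against 12.19, 11.69 and 11.38 in control replicates, a difference of -0.01 ± 0.29, or -0.18 without CT16 replicate 3, and its other probe gave 0.30. SAMD9, an antiviral factor that inhibits translation, read 7.35, 8.78 and 6.49 in CT16 replicates, against 7.67, 8.37 and 8.68 in control replicates. The CT16 arrays of SAMD9 spanned the control range, and the difference was -0.70 ± 0.57, or -0.18 ± 0.44 without CT16 replicate 3. XAF1, which promotes apoptosis by opposing XIAP, read 6.35, 6.54 and 4.54 in CT16 replicates, against 5.42, 6.33 and 6.39 in control replicates. It was not detected on CT16 replicate 3, and its difference of -0.24 ± 0.56 was 0.39 ± 0.30 without that array.

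The remaining genes of this mixed group gave overlapping groups. They were IFI35, a partner of the interferon-induced factor NMI (0.67 ± 0.33), and IFI44 (0.26 ± 0.38), a cytoplasmic antiviral protein. IFI30, a lysosomal thiol reductase of antigen processing, gave 0.09 ± 0.35, and PARP9, an ADP-ribosylation factor, gave -0.31 ± 0.34. IFI16, a sensor of DNA, gave -0.60 ± 0.36. The genes other than IFI44 gave 0.33 (IFI35), -0.25 (IFI30), 0.05 (PARP9) and -0.21 (IFI16) without CT16 replicate 3. IFI44 reached 0.65 ± 0.24 without CT16 replicate 3 (limma, adjusted p = 0.358).

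Much of the spread among these genes lay on CT16 replicate 3. Its value was outside those of the other 2 CT16 arrays for all 33 genes, above them for 17 and below them for 16, and for 94.3% of all genes. The median range over the CT16 arrays was 1.10, against 0.41 over the control arrays, and it was wider in CT16 for 31 of the 33 genes. Over all genes these medians were 0.89 and 0.44.

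The 16 genes that were low on this array lay a median of 1.16 below the other CT16 arrays (median -1.16, lowest -1.91 for XAF1). They included all 4 IFIT genes, both sensors, both guanylate-binding proteins, TRIM22, SAMD9, IFI16, IFI44, HERC5, PARP9 and MX2. The 17 genes that were high lay a median of 0.83 above, at most 1.63 for ISG15. They included all 3 OAS genes, all 3 IFITM genes, BST2, USP18, ISG20, IFI27, IFI30, IFI35, IFI6, both interferon regulatory factors and MX1. Control replicate 1 leaned the same way among the controls: it was the lowest control array for 14 of the 16 low genes and the highest for 16 of the 17 high ones.

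The low and high genes differed in their length on the chromosome. The low genes had a median genomic span of 20092 bases and the high genes of 7673 bases (RefSeq, GRCh38.p14). Over all genes, the median deviation of CT16 replicate 3 was lower at greater span, at 0.64, 0.32, -0.14 and -0.63 in 4 equal groups of increasing span. Spearman's rho between deviation and span was -0.39 across 11256 genes and -0.37 across the 33 interferon-stimulated genes, given as a description since all points share the same arrays. In the same groups, by increasing span, the 13, 11, 8 and 1 interferon-stimulated genes had median deviations of 0.57, -0.95, -0.65 and -0.47. The part of RNA quality in this pattern was not tested.

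**Figure D4:**
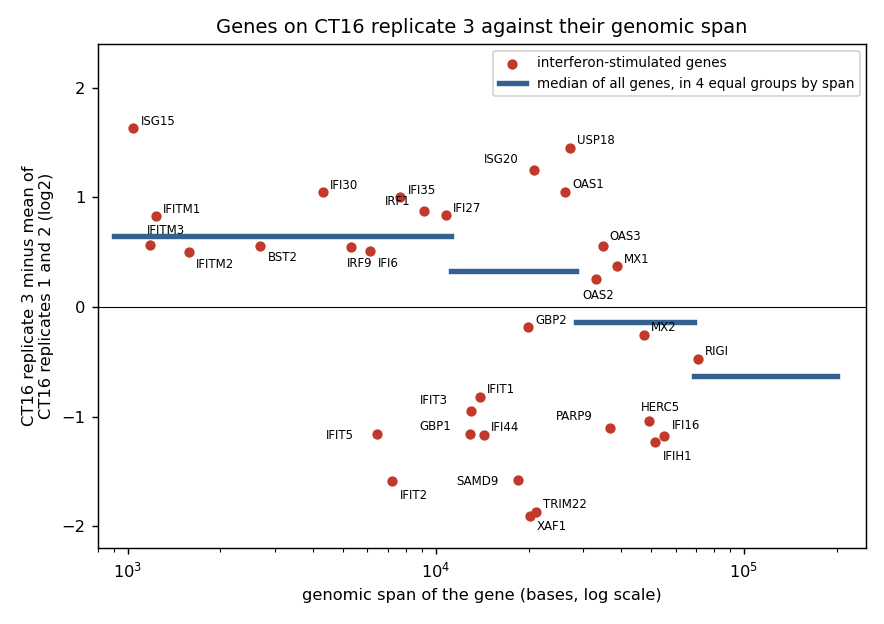
Deviation of CT16 replicate 3 from the mean of CT16 replicates 1 and 2 (y axis, log2) for the 33 interferon-stimulated genes (red points) against genomic span in bases (x axis, log scale), with the median of all genes in each of 4 equal groups of span as blue bars, the outer 2 drawn only within the axis range. The bars step down at 0.64, 0.32, -0.14 and -0.63, and the genes spread between 1.63 (ISG15) and -1.91 (XAF1).

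The sign of many differences changed when this array was left out. Among the 16 low genes 4 differences were positive with all arrays and 10 without CT16 replicate 3. Among the 17 high genes 14 were positive with all arrays and 7 without it. Because the low and high genes were set by that array, the direction of both shifts was fixed in advance. Over all 33 genes, 17 differences were positive without it and the median was 0.05, against -0.01 over all genes. MX2 was then the only member past the threshold, against 147 genes (1.31%) in all. At an unadjusted p under 0.05 there were 6, namely MX2, MX1, IFI27, HERC5, ISG20 and IFI44, against 12.2% of all genes. The arrays did not overlap for 11 genes, against 34.6% of all genes. With all arrays kept and a smooth trend on genomic span removed from each array, an alternative chosen after seeing the data, no member passed the threshold, against 0.355% of all genes. At an unadjusted p under 0.05 there were then 6 members, against 7.06% of all genes, and 8 did not overlap, against 15.4%.

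Differences were also grouped by promoter element. The 17 measured genes with an ISRE match had a median difference of 0.05, with 9 positive, and the 9 measured genes with a window and no match had a median of 0.01, with 5 positive. The 7 genes with a GAS match (IFI27, IFI35, IFITM1, OAS1, IRF1, IRF9 and BST2) were all positive, with a median of 0.35, against 7 of 19 genes without one and a median of -0.09. All 7 were also high on CT16 replicate 3, with a median deviation of 0.84, against 7 of 19 without a match. Without that array 3 of the 7 were positive, with a median of 0.00, against 10 of 19 with a median of 0.05.

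MX2 and MX1 are next to each other on chromosome 21, and the measured genes around the pair were looked at after the MX values were seen. Of 10 protein-coding neighbours, 5 on each side, 6 were measured and 4 had negative differences, with a median of -0.35. The count was 3 of 6 without CT16 replicate 3, with a median of -0.11. TMPRSS2, which lies beside MX1 and codes for a cell surface serine protease, read 5.80, 6.20 and 5.89 in CT16 replicates 1, 2 and 3, against 7.24, 7.09 and 6.74 in control replicates 1, 2 and 3. Its groups did not overlap, and the difference was -1.06 ± 0.24 (SE; limma, adjusted p = 0.241). BACE2, on the MX2 side, also did not overlap, with -0.35 ± 0.21. RIPK4 and C2CD2 further along gave -0.36 ± 0.27 and 0.01 ± 0.27, DSCAM gave 0.30 ± 0.27 and ZBTB21 gave -0.68 ± 0.66, all with overlapping groups. TMPRSS2, BACE2 and ZBTB21 gave -1.03, -0.27 and 0.14 without CT16 replicate 3.

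The same count was made around IFI27 and ISG20. Of 10 neighbours of IFI27 on chromosome 14, 6 were measured, 5 with positive and 1 with a negative difference, with a median of 0.55, or 0.24 without CT16 replicate 3. Its paralogs IFI27L1 and IFI27L2 gave 0.74 ± 0.41 and 0.65 ± 0.40, with overlapping groups. SERPINA1, the gene of the protease inhibitor alpha-1-antitrypsin, lay above the control arrays on every CT16 array (0.45 ± 0.23), and the RNA helicase gene DDX24 lay below (-0.43 ± 0.26). Of 10 neighbours of ISG20 on chromosome 15, 7 were measured, 4 with positive and 3 with negative differences, with a median of 0.11. With CT16 replicate 3 left out, 1 was positive and 6 were negative, with a median of -0.14. HAPLN3, a hyaluronan link protein gene separated from ISG20 by ACAN, gave 1.26 ± 0.36 without overlap (limma, adjusted p = 0.434) and 0.89 without CT16 replicate 3. DET1 also did not overlap, with -0.32 ± 0.21, and AEN, next to ISG20 on the other side, gave -0.11 ± 0.28 with overlapping groups.

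Upstream of the induced genes, the interferon receptor list had 6 of 6 genes measured, none past the threshold, with a median of 0.05, or 0.21 without CT16 replicate 3. IFNLR1, the lambda interferon receptor chain, read 9.60, 9.43 and 9.85 in CT16 replicates 1, 2 and 3, against 9.04, 8.86 and 9.23 in control replicates 1, 2 and 3, without overlap and with a difference of 0.58 ± 0.22 (SE; limma, adjusted p = 0.721), and a second tested probe gave 0.28 with overlapping groups. IFNAR2, a chain of the type I receptor, gave 0.22 ± 0.21, also without overlap, while its other tested probe gave -0.03. IFNAR1, IFNGR1, IFNGR2 and IL10RB gave -0.41 ± 0.48, -0.21 ± 0.47, 0.08 ± 0.20 and 0.02 ± 0.23. In the same order they gave 0.14, 0.32, 0.14 and -0.15 without CT16 replicate 3. The other tested IL10RB probe gave -0.06. Of 21 listed interferon genes 1 was measured, IFNA8 (0.11 ± 0.30, or -0.15 without CT16 replicate 3). Only 1 IFNA8 probe was read there, and its other probe was detected on 0 arrays, so transcription of the gene is not settled.

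The JAK-STAT list had 8 of 12 genes measured, 1 positive and 7 negative, with a median of -0.22 and none past the threshold. Without CT16 replicate 3 these counts were 6 positive and 2 negative, with a median of 0.13, so the direction of the list rested on that array. The kinases JAK1, JAK2 and TYK2 gave -0.07 ± 0.24, -0.27 ± 0.49 and -0.05 ± 0.25, and 0.12, 0.31 and -0.25 without CT16 replicate 3. The genes of lowest p, PIAS4, PIAS1 and PTPN11, which damp or modulate STAT signaling, gave 0.36 ± 0.27, -0.37 ± 0.43 and -0.46 ± 0.58, and without CT16 replicate 3 they gave 0.10, 0.14 and 0.21. The members of this list lay a median of 1.05 below the other CT16 arrays on CT16 replicate 3 (median -1.05). The induction list, of sensors and adaptors that lead to interferon production, had 15 of 20 genes measured, a median of 0.01 and none past the threshold. Its genes of lowest p were MAVS, the mitochondrial adaptor of RNA sensing (-0.35 ± 0.23), the adaptor MYD88 (-0.38 ± 0.27) and the sensor DHX58 (0.41 ± 0.30). The other tested MAVS probe gave 0.11, so its probes disagreed in sign.

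A separate list of 44 further interferon-stimulated genes had 33 measured, 15 positive and 18 negative, with a median of -0.04 and none past the threshold. Without CT16 replicate 3, 17 were positive and the median was 0.00. Of these 33 genes, 3 had an unadjusted p under 0.05, against 6.41% of all genes. APOBEC3G, a cytidine deaminase that mutates retroviral DNA, gave 0.83 ± 0.25 (limma, adjusted p = 0.478), and PLSCR1, a membrane phospholipid scramblase, gave 0.73 ± 0.21 (adjusted p = 0.462). TRIM5, a retroviral capsid sensor, gave -0.60 ± 0.25 (adjusted p = 0.754) on its brightest probe, while its other 3 tested probes gave 0.28, 0.31 and 0.29, so its direction was not settled. The median of MHC class I presentation genes, many of which interferon induces, was 0.05 over 16 genes, again with none past the threshold, and was -0.10 without CT16 replicate 3. PSMB9, a subunit of the immunoproteasome, gave 0.42 ± 0.38 and 0.60 ± 0.38 on its tested probes. For the peptide transporter subunit TAP2 and its partner TAPBP the probes disagreed in sign: TAP2 gave 0.60 ± 0.29 and -0.22 ± 0.25, and TAPBP gave -0.52 ± 0.25, 0.10 ± 0.25 and 0.52 ± 0.23.

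The MHC class II list, whose genes interferon gamma induces through the coactivator CIITA, had other counts. Of 8 measured genes, 6 were detected in both groups. On their brightest probes all 6 had negative differences, with a median of -1.25 and 1 past the threshold. Among them HLA-DRB4 gave -1.43, -1.17 and 0.30 on its tested probes, the last with overlapping groups, so its probes disagreed in sign. HLA-DRB3 and HLA-DPB1 were detected on 0 CT16 arrays and 3 control arrays. They were measured only through the control cells, so no test is read from them. HLA-DRA read 10.50, 10.47 and 10.33 in CT16 replicates 1, 2 and 3, against 12.06, 12.17 and 12.33 in control replicates 1, 2 and 3, a difference of -1.75 ± 0.20 (SE; limma, adjusted p = 0.028). HLA-DRB3 and HLA-DPB1 both read below the control arrays on every CT16 array. No fold change is given for them, since neither was detected in CT16 cells. The HLA-DRB3 probe may read other HLA-DRB genes. The CIITA probe was detected on 2 arrays and not tested.

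**Figure D5:**
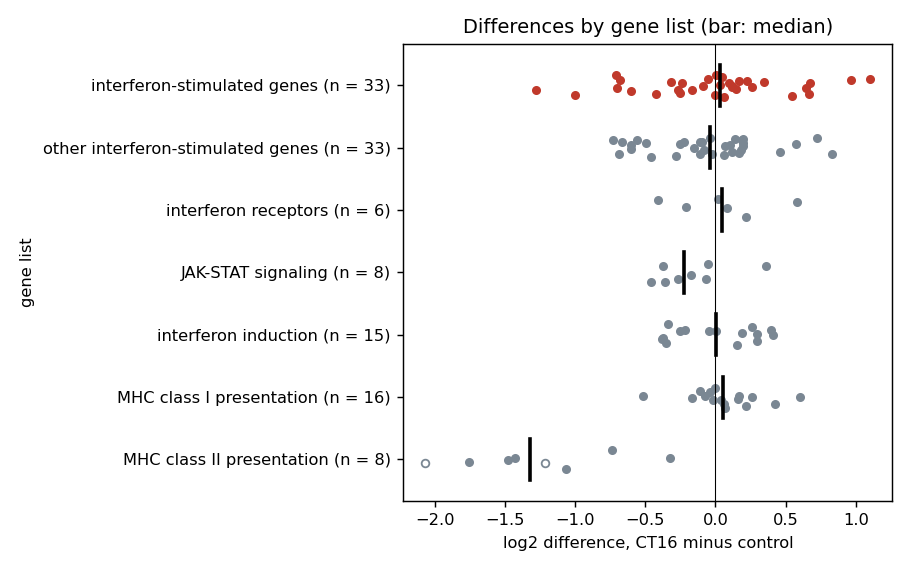
Log2 difference, CT16 minus control (x axis), of the measured genes of 7 gene lists (rows), with each point 1 gene, open where the gene was detected on 0 CT16 arrays, and the black bar the list median. The interferon-stimulated genes (red, n = 33) lie on both sides of 0 with a median of 0.04. The MHC class II genes (n = 8) are drawn by their brightest probes, with a median of -1.32. This includes 2 open points measured only through the control cells. The 6 genes detected in both groups are below 0, with a median of -1.25.

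The labelled cell type carried its markers. Of 8 melanocyte lineage genes 7 were measured, with PMEL at 14.00 ± 0.07 in CT16 cells and 13.74 ± 0.06 in control cells (SD, n = 3 each), and TYR, SOX10 and MLANA detected on all 6 arrays. S100B was weaker, detected on 5 arrays and at most 6.71. Differences of the 7 were positive for 3 and negative for 4, with a median of -0.08, or -0.19 without CT16 replicate 3, and none passed the threshold. TYR gave -0.37 ± 0.23 without overlap. TYRP1, an enzyme of melanin synthesis, and MITF, the transcription factor of the lineage, gave -1.18 ± 0.59 and -0.62 ± 0.53 with overlapping groups, and -0.45 and 0.00 without CT16 replicate 3. The other tested MITF probe gave 0.56. The part of these markers in the differences of interferon-stimulated genes was not tested. Of 13 immune cell markers 4 were measured, ITGAM, CD14, CD79A and LYZ, and the probes of PTPRC and CD3E were detected on 0 arrays. CD14 was detected on all 6 arrays, with 0.33 ± 0.31 and overlapping groups, and LYZ gave 0.11 ± 0.35. ITGAM (-0.60 ± 0.27) and CD79A (-0.20 ± 0.19) were near the lowest signal of a detected probe. Both lay below the control arrays on every CT16 array, as did 7.4% of all genes.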

How the data were processed

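Biotinylated cRNA of 6 samples was hybridized to 1-colour Illumina Human-6 bead arrays. The authors deposited probe intensities that were neither background-subtracted nor normalized, with a detection p-value for each probe and array. They also deposited quantile normalized intensities, which matched a quantile normalization of the first table computed here within 1% for 99.998% of values, on a linear scale and without centring (median 64.5 on each array). The authors tested with the rank product algorithm, which was not used here.

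Background was corrected in limma 3.58.1 (R 4.3.3) with nec, taking negative controls from the detection p-values, with an offset of 16, followed by quantile normalization and log2. Of 48803 distinct probes (1 repeated row averaged), 18156 with a detection p under 0.01 on at least 3 of 6 arrays were fitted with lmFit and eBayes, two-sided. Each gene was represented by its tested probe of highest mean signal, which gave 11264 genes. The number of arrays limits the precision. Probes were named from the platform annotation (27578 with 1 symbol, 13 with several, 21212 not listed), updated through RefSeq (GRCh38.p14). Of 53 probes of the interferon-stimulated genes 42 were tested, and of 7 genes with several tested probes 4 had the same sign in all.

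The members and lists were chosen with earlier results of these data known. Values per array are given for members with an unadjusted or adjusted p under 0.05, the 6 of highest mean signal and the 3 with the widest CT16 range, and other members by role. Of other lists, members past the threshold and up to 3 of lowest p are named, with all receptors and JAK kinases. IFITM1, TRIM22, ISG15 and chromosomal neighbours were given per array after their values were seen. The alternatives covered signals without background correction, normalization by median scaling, by cyclic loess or as deposited, other detection filters, each array left out, a replicate block, a trended robust prior, array weights, the mean of all probes, an offset of 50 and, added after seeing the data, an adjustment for genomic span. Same-numbered samples did not consistently deviate together (correlations -0.67, 0.67 and -0.63 for replicates 1, 2 and 3).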

Additional observations from a re-analysis of the deposited data

Results flagged for a closer look

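IFI44L, a relative of IFI44, was measured by 2 probes that did not enter the comparisons. Probe ILMN_1835092 was detected on 1 CT16 array, with a log2 signal of 5.64, against a highest control value of 5.05. Probe ILMN_1723912 was detected on 1 CT16 array, with a log2 signal of 5.13, against a highest control value of 5.09. Neither was detected on a control array. The other CT16 arrays read 4.89 and 4.92 on ILMN_1835092, and 4.86 and 4.42 on ILMN_1723912, below the highest control value of each probe. The lowest signal of a detected probe was 5.08 on CT16 replicate 2 and 5.14 on control replicate 3, so detection also depended on the array. The 2 probes were detected on different CT16 arrays, and the difference between groups was not tested.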

How the results depend on the processing

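With all arrays 27 genes passed the threshold. This count was 4 with detection required on all 6 arrays, 3 with a replicate block and 1377 with array weights, and 3 to 147 when 1 array was left out (147 without CT16 replicate 3, and 3, 11, 3, 4 and 8 without CT16 replicate 1, CT16 replicate 2 and control replicates 1, 2 and 3). The 0 interferon-stimulated genes past the threshold became 9 with array weights (MX1, MX2, IFI27, ISG20, IFITM1, TRIM22, IFI35, IFIT3 and HERC5) and 0 to 1 with an array left out. The weights, from the gene-by-gene method since the default did not converge, were 0.0704 for CT16 replicate 3 and 0.335 for control replicate 1, against 1.08 to 4.76 for the others. Interferon-stimulated genes without overlap numbered 11 of 33 without CT16 replicate 3, near the share of all genes (34.6%). Leaving out an array can only keep or raise such a count, and the part of that array's own deviation was not tested. Their median difference stayed between -0.04 and 0.08 in every alternative.

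Of 226 values under alternatives of the 12 interferon-stimulated genes given per array by the naming rule, 200 kept direction and side of the threshold, 6 passed it and 20 changed sign. IFI6 was 0.028 with median scaling, 0.047 with cyclic loess and 0.15 with the mean of all probes. With array weights IFIT2 was 0.041, IFITM2 -0.025, BST2 -0.12 and XAF1 0.056. With the adjustment for genomic span, chosen after seeing the data, IFITM2 was -0.12, IFITM3 -0.044 and BST2 -0.092. With an array left out the values ranged for IFI6 between -0.19 and 0.22, for IFIT2 between -0.56 and 0.28, for IFITM2 between -0.13 and 0.14, for IFITM3 between -0.074 and 0.23, for BST2 between -0.14 and 0.15, and for XAF1 between -0.61 and 0.39. SAMD9 kept its sign, between -1.32 and -0.18. Over all 33 measured genes, the sign differed for 13 without CT16 replicate 3, for 1 to 4 without another array, for 8 with array weights, for 8 with the adjustment for genomic span and for 0 to 3 under the others. The cause was not tested. TRIM22 and XAF1 gave no value with detection required on all 6 arrays. The replicate numbers did not pair the cultures (correlations of same-numbered deviations -0.67, 0.67 and -0.63), and 0 interferon-stimulated genes passed with the replicate block.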
